A study of Mus musculus with 6 samples.

Results

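The 33 immediate early response genes described here were taken by their symbols from a list of growth factor and stress induced early genes, and all 33 were found among the 46072 genes of the deposited tables. Of these, 17 had a mean of at least 1 FPKM (mapped fragments scaled by transcript length and by library size) over the 6 libraries, the minimum used for counts and medians, as did 8505 genes of the whole series. The other 16 lay below it.

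Left ventricles of male mice aged 10 weeks were subjected to RNA immunoprecipitation and sequencing (RIP-seq), with normal IgG or with an antibody to EZH2, the histone methyltransferase of Polycomb repressive complex 2. Mice received angiotensin II (AngII), a pressor peptide, for 4 or 24 h from an osmotic minipump at a labelled rate of 1 mg/kg/min. Sham mice received saline by the protocol, while the treatment label of their libraries reads Untreated. Each group held 2 mice, and 2 RIP products were mixed into 1 library, so each of the 6 combinations of group and antibody is a single library and no test over animals can be made. The strain is labelled C57BL/6 for 4 libraries, and the AngII 4 h and AngII 24 h anti-EZH2 libraries are labelled C57BL/7 and C57BL/8. No time of day or time after implantation is given for the collection of Sham hearts. The RNA is what stayed on the beads, so an IgG value is a background level of precipitated RNA and not a measurement of total RNA. In pieces of whole ventricle, fewer cells of a type and less RNA per cell cannot be told apart.

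Immediate early genes are transcribed within minutes of a stimulus without new protein synthesis, from promoters already bound by serum response factor (SRF), its ternary complex partners and CREB, which receive signals from MAP kinases and calcium. Many encode transcription factors, such as AP-1, EGR, KLF and NR4A proteins. Others end the signal, among them dual specificity phosphatases that inactivate MAP kinases and ZFP36 proteins that speed the decay of AU-rich mRNAs. In the heart, pressure load and AngII are classical inducers of this program, and its mRNAs are mostly short-lived.

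Promoter sequences are shown because SRF and CREB sites are what the family is known to share. RefSeq promoter windows of GRCm38.p6, the build named mm10 in the labels, matched 27 of the 33 genes, with Cyr61 under its current symbol Ccn1. Fosl1, Egr1, Egr3, Ier2, Klf10 and Myc were not matched. Each window runs from 250 bases before the transcription start to 50 after it and was searched on both strands. The CArG box bound by SRF was present in 4 of the 27 genes (14.8%: Dusp5, Egr2, Srf and Zfp36), against 1.81% of all 27025 genes with a window. The cAMP response element core TGACGT was present in 9 (33.3%: Atf3, Btg2, Ccn1, Dusp1, Dusp5, Egr2, Fos, Maff and Nr4a3), against 8.37% of all genes. TATAAA was present in 8 (29.6%: Ccn1, Fos, Gadd45b, Gadd45g, Junb, Nr4a2, Srf and Zfp36l1), against 15.7% of all genes. The AP-1 site, TGAGTCA or TGACTCA, was present in 0 of the 27, against 5.95% of all genes. A CArG box can contain TATAAA, while the other motifs do not overlap it by their letters. These matches describe letters in a window and were not tested. Sites farther from the start were not searched, so a gene without a match, such as Fos for the CArG box, can carry one elsewhere.

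The 250 bases upstream of the start are given for Fos, the prototype of the family, for Srf and Zfp36, which carry CArG boxes in the window, and for Gadd45b, which passed 2-fold between the antibodies in all 3 groups. Capitals mark the CArG box, TGACGT and TATAAA on either strand. Fos (chr12:85473640-85473889, plus strand) held TGACGT beginning 66 bases and TATAAA beginning 33 bases before the start. Srf (chr17:46556163-46556412, minus strand) held CArG boxes beginning 82 and 62 bases before the start and TATAAA, on the reverse strand, at 38 bases. Zfp36 (chr7:28379229-28379478, minus strand) held 1 CArG box, at 58 bases, and Gadd45b (chr10:80929841-80930090, plus strand) held TATAAA at 46 bases.
Fos: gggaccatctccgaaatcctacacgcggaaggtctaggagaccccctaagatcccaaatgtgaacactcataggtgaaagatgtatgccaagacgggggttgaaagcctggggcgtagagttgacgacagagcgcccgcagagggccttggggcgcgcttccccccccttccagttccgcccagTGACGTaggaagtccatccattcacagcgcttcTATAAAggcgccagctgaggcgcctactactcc
Srf: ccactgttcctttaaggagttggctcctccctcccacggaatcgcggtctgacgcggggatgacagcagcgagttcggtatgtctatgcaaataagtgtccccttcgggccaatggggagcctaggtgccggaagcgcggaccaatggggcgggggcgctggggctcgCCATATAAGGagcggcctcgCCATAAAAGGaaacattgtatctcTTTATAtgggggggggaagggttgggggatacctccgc
Zfp36: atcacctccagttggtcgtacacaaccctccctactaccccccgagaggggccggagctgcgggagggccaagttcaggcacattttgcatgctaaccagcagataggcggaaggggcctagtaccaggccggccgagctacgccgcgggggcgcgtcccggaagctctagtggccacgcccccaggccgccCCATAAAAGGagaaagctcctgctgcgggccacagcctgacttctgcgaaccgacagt
Gadd45b: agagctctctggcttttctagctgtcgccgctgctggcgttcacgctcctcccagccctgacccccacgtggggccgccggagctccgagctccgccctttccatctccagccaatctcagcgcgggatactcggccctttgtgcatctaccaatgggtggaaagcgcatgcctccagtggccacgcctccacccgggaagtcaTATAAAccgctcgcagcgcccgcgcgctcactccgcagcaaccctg

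The libraries were shallow for genes of this abundance. Low FPKM values fell on steps of whole fragments, from which depths of 3820000 to 7990000 fragments per library were derived. Summed over the 33 genes, the FPKM were 49.3 in Sham IgG, 48.5 in AngII 4 h IgG and 53.9 in AngII 24 h IgG, and 38.9 in Sham anti-EZH2, 46.6 in AngII 4 h anti-EZH2 and 31.0 in AngII 24 h anti-EZH2. The sums were thus lowest in the AngII 24 h anti-EZH2 library, and the AngII 4 h IgG sum did not exceed that of Sham IgG. The highest value of any of the 33 was 5.67 FPKM. Of their 198 values, 29 were 0, and 23 genes were above 0 in all 6 libraries. By fragments, 12 genes had at least 10 in every library and 9 had fewer than 10 in every library. The 8 cardiomyocyte markers summed to between 5851 and 10242 FPKM in each library, whereas the 5 neutrophil markers summed to between 0 and 3.36.

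**Figure D1:**
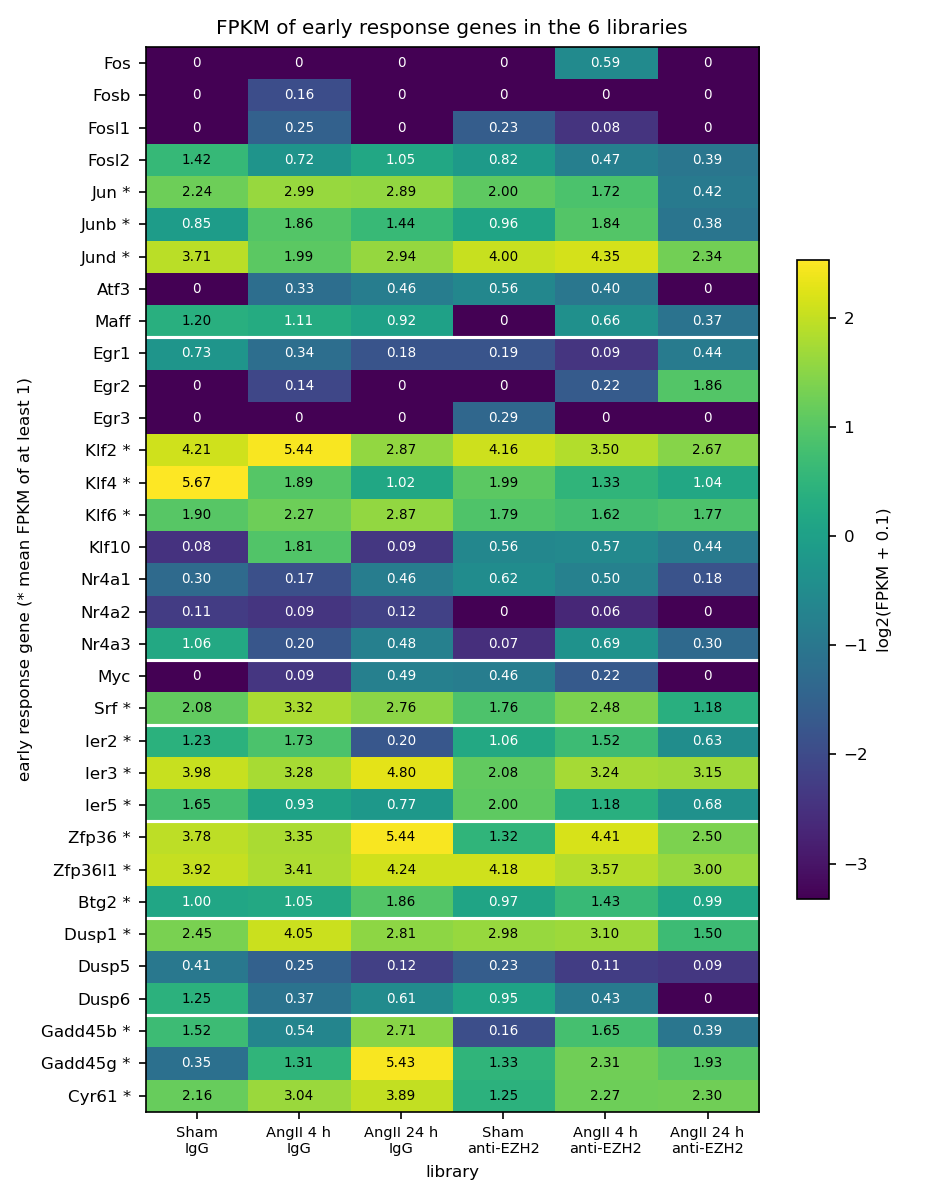
FPKM of the 33 early response genes (rows, grouped by role, with an asterisk for a mean of at least 1 FPKM) in the 6 libraries (columns), with colour for log2(FPKM + 0.1) and the FPKM printed in each cell. Fos is above 0 in 1 library, and the highest cell is Klf4 in Sham IgG at 5.67 FPKM.

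AngII at 4 h, the time at which an early response might still be seen, was compared with Sham first in the IgG libraries. A gene is counted here as higher or lower when the log2 difference of FPKM + 0.1 passed 2-fold. Of the 17 genes above the minimum, 2 were higher (Gadd45g and Junb) and 2 lower (Klf4 and Gadd45b), which is 11.8% each way, against 17.9% higher and 11.2% lower of all 8505 genes. Their median log2 difference was 0.25, against 0.19 over all genes. In the anti-EZH2 libraries, 2 of 17 were higher at 4 h (Gadd45b and Zfp36, 11.8%, against 21.1% of all genes) and 0 lower (against 10.1%), with a median of 0.47 against 0.35. The shares of early response genes past 2-fold were thus no larger than those of all genes, apart from a near-equal share lower in IgG.

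At 24 h in the IgG libraries, 1 of 17 genes was higher (Gadd45g, 5.88%, against 20.6% of all genes) and 3 lower (Klf4, Ier2 and Ier5, 17.6%, against 10.3%), with a median of 0.35 against 0.21 over all genes. At 24 h in the anti-EZH2 libraries, 0 were higher (against 13.4% of all genes) and 3 lower (Jun, Junb and Ier5, 17.6%, against 21.9%), with a median of -0.54 against -0.08. The values depended on which deposited table was used. In the authors' second table of FPKM for the same 6 libraries, 10 early response genes passed the minimum. Their median at 24 h was 1.19 in IgG and 0.99 in anti-EZH2, beside 0.62 and 0.64 over all genes. At 24 h, 6 of the 10 were higher in IgG and 5 in anti-EZH2, against 36.2% and 38.6% of all genes there. In either antibody 0 were lower, against 7.90% and 10.7%. At 4 h the median in the second table was -0.23 in IgG and -0.04 in anti-EZH2, beside -0.11 and 0.01 over all genes. Both were below 0 where the separate tables gave values above 0. Differences of single genes were compared between the tables for the 17 genes and for Klf10, which lay below the minimum. Of these 126 differences, 33 changed sign, and of the 30 past 2-fold 10 no longer passed it in the same direction. Another 16 differences passed 2-fold in the second table only. Values below come from the separate tables unless the second is named.

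The comparisons of the 2 antibodies share no library, though they come from the same groups of mice, so the genes with 1 direction in both were counted. At 4 h, 7 of the 17 genes were above Sham in both antibodies (Btg2, Cyr61, Dusp1, Gadd45g, Ier2, Junb and Srf) and 3 below it in both (Ier5, Klf4 and Zfp36l1), or 58.8% with 1 direction, against 57.6% of all genes. Past 2-fold, 0 of the 17 went the same way in both at 4 h (7.68% of all genes) and 1, Gadd45b, went opposite ways (5.88%, against 4.49%). At 24 h, 6 genes were above Sham in both antibodies (Btg2, Cyr61, Gadd45b, Gadd45g, Ier3 and Zfp36) and 5 below it (Ier2, Ier5, Jund, Klf2 and Klf4), or 64.7%, against 51.6% of all genes. Past 2-fold at 24 h, 1 of the 17, Ier5, went the same way in both (5.88%, against 7.23%) and 0 went opposite ways (against 6.67%). In the second table the 6 genes named as above Sham at 24 h stayed above it, and Klf4 stayed below. Jund and Klf2 were instead above Sham there in both antibodies, Ier2 in anti-EZH2 and Ier5 in IgG (log2 0.011). Of the genes named at 4 h, Dusp1 turned in both antibodies and Btg2 in IgG.

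**Figure D2:**
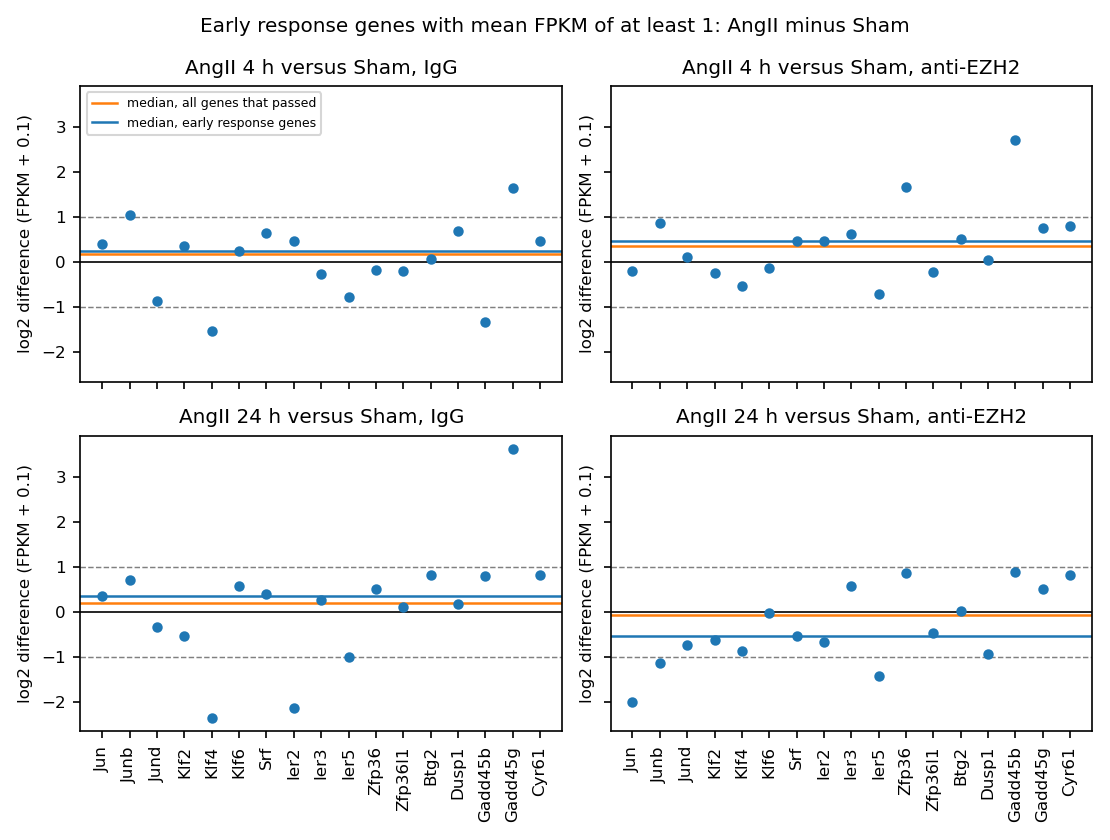
Log2 difference of FPKM + 0.1, AngII minus Sham, of the 17 early response genes with a mean of at least 1 FPKM (x axis), for each time and antibody; each point is 1 library against 1 library, the blue line is their median, the orange line the median of all 8505 genes and the dashed lines mark 2-fold. The medians of early response genes and of all genes lie farthest apart at 24 h in anti-EZH2 (-0.54 against -0.08).

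Anti-EZH2 was then set against IgG within each group, the comparison that asks which RNAs were recovered with EZH2. In Sham, 1 of the 17 genes was higher with anti-EZH2 (Gadd45g, against 13.7% of all genes) and 3 lower (Gadd45b, Klf4 and Zfp36, against 18.6%), with a median of -0.08 against -0.23. After 4 h, 2 were higher (Gadd45b and Jund, against 11.9%) and 0 lower (against 11.7%), with a median of -0.02 against -0.08. After 24 h, 1 was higher (Ier2, against 8.48%) and 6 lower (Gadd45b, Gadd45g, Jun, Junb, Srf and Zfp36, 35.3%, against 32.7%), with a median of -0.73 against -0.58. At 24 h, 0 of the 10 genes that passed in the authors' second table were past 2-fold in either direction, against 15.8% higher and 15.0% lower of all its 5036 genes, with a median of 0.014 against 0.058. No gene of the 17 was more than 2-fold higher with anti-EZH2 in more than 1 group. With only 1, 2 and 1 genes higher in Sham, 4 h and 24 h, this says little, and the matching share of all genes was not counted.

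**Figure D3:**
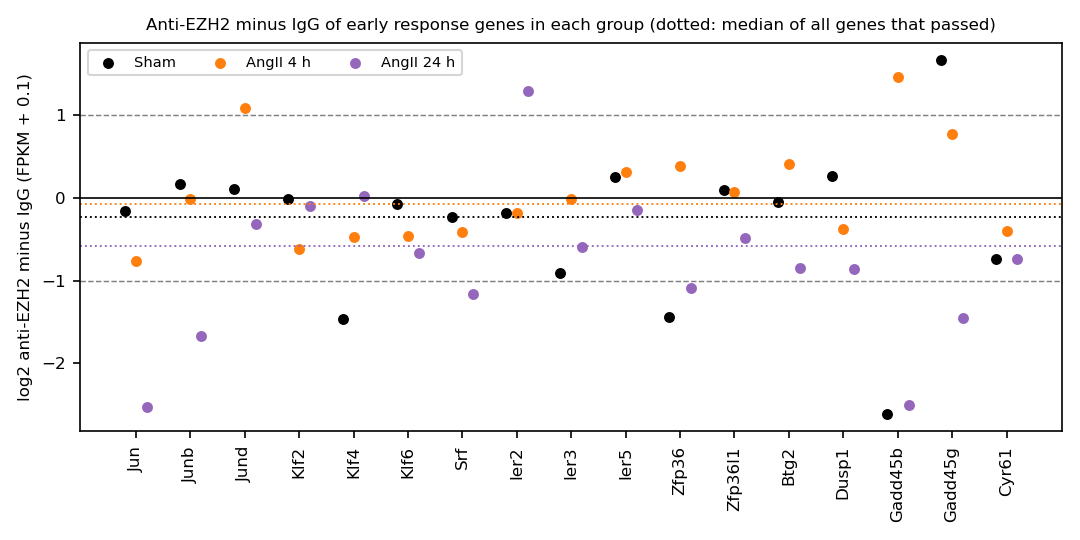
Log2 difference of FPKM + 0.1, anti-EZH2 minus IgG, of the 17 genes in Sham (black), AngII 4 h (orange) and AngII 24 h (purple); dotted lines are the medians of all 8505 genes in the same colours and dashed lines mark 2-fold. Gadd45b lies at -2.61, 1.46 and -2.51 in the 3 groups.

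AP-1 is a dimer of FOS and JUN proteins, with ATF and MAF relatives, and binds TGAGTCA-type sites. Fos itself was at 0 FPKM in 5 libraries and at 0.59 in AngII 4 h anti-EZH2, where it came from about 9 fragments with an interval from 0 to 1.79 FPKM. A count of 3 fragments in the libraries at 0 would have given 0.276 to 0.412 FPKM, so lower levels of Fos could not be seen at this depth. Fosb was above 0 only in AngII 4 h IgG, at 0.16 FPKM, and Fosl1 lay between 0 and 0.25. Both encode further FOS family proteins. Fosl2, the FOS relative with the highest level, was at 1.42, 0.72 and 1.05 FPKM in Sham, 4 h and 24 h IgG and at 0.82, 0.47 and 0.39 in anti-EZH2. It was highest in the Sham library of each antibody. In the second table Fosl2 was again highest in Sham with anti-EZH2, but with IgG at 24 h (0.86 FPKM, against 0.63 in Sham).

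Jun, the most transforming of the JUN proteins, had 2.24, 2.99 and 2.89 FPKM in Sham, 4 h and 24 h IgG and 2.00, 1.72 and 0.42 in anti-EZH2. The low value is the AngII 24 h anti-EZH2 library, with 6 fragments against 34 in Sham anti-EZH2 and 33 in AngII 24 h IgG. Its ratio to Sham anti-EZH2 was 0.210, with an exact Clopper-Pearson counting interval at 95% from 0.072 to 0.507, and its ratio to IgG at 24 h was 0.145 (0.050 to 0.351). In the second table the 24 h difference from Sham was log2 -0.86 in place of -2.01, no longer past 2-fold, and that from IgG was -1.83. The 24 h difference of Jun from Sham in IgG was 1.28 there, past 2-fold, in place of 0.35. At 4 h the anti-EZH2 to IgG ratio of Jun was 0.574 (0.368 to 0.892). These intervals cover counting error alone and say nothing of differences between animals or precipitations. Junb, a JUN protein with weaker activity, had 0.85, 1.86 and 1.44 FPKM in IgG and 0.96, 1.84 and 0.38 in anti-EZH2. It was 2.20-fold higher at 4 h than in Sham in IgG (log2 1.05) and lower at 24 h in anti-EZH2 (log2 -1.14), and the FPKM intervals overlapped in both cases. In the second table the 4 h IgG difference of Junb was 0.66 and the 24 h anti-EZH2 difference was 0.97, of opposite sign. The 24 h IgG difference of Junb was 2.56 there, past 2-fold, in place of 0.70. Jund, the JUN protein present in resting cells, had 3.71, 1.99 and 2.94 FPKM in IgG and 4.00, 4.35 and 2.34 in anti-EZH2. Its anti-EZH2 to IgG ratio at 4 h was 2.19, with FPKM intervals that did not overlap. In the second table the 24 h differences of Jund from Sham were log2 1.29 in IgG and 1.05 in anti-EZH2, both past 2-fold. In the separate tables they were -0.33 and -0.75, of opposite sign. Atf3, a stress-induced repressor, lay between 0 and 0.56 FPKM, and Maff, a small MAF protein, between 0 and 1.2.

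Among the EGR zinc finger factors, Egr1 was highest in Sham IgG, at 0.73 FPKM, and had 0.34 and 0.18 at 4 h and 24 h in IgG. In anti-EZH2 it had 0.19, 0.09 and 0.44 FPKM. Neither antibody had its highest Egr1 value at 4 h. Egr2 reached 1.86 FPKM in AngII 24 h anti-EZH2 and at most 0.22 elsewhere, but the table gives that value an interval from 0 to 6.44. Egr3 was above 0 only in Sham anti-EZH2, at 0.29 FPKM. The NR4A orphan nuclear receptors were also low, with Nr4a1 between 0.17 and 0.62 FPKM, Nr4a2 between 0 and 0.12 and Nr4a3 between 0.07 and 1.06.

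The KLF zinc finger factors included the most abundant of these mRNAs. Klf2, a flow-responsive factor of endothelial cells, had 4.21, 5.44 and 2.87 FPKM in Sham, 4 h and 24 h IgG and 4.16, 3.50 and 2.67 in anti-EZH2. Its anti-EZH2 to IgG ratio at 4 h was 0.644 (exact counting interval 0.420 to 0.989). Klf4, a related factor of endothelium, smooth muscle and macrophages, had 5.67, 1.89 and 1.02 FPKM in IgG and 1.99, 1.33 and 1.04 in anti-EZH2. The high value was the Sham IgG library alone. From it Klf4 differed by log2 -1.53 at 4 h and -2.36 at 24 h in IgG, and by -1.47 with anti-EZH2 in Sham, and the FPKM intervals overlapped in each case, with 2.04 to 9.37 FPKM for Sham IgG. The second table gave -0.58 for anti-EZH2 in Sham, no longer past 2-fold. The ratio at 24 h in IgG was 0.180, with an approximate counting interval of 0.0863 to 0.344 from fragments rounded to whole numbers.

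Beside Klf2 and Klf4, the 8 endothelial markers, all of them measured in every library, summed to 52.3, 35.6 and 38.1 FPKM in Sham, 4 h and 24 h IgG and to 36.0, 39.6 and 35.2 in anti-EZH2. The 8 macrophage markers, 4 of them above the minimum, summed to 42.6, 28.9 and 32.6 and to 36.0, 23.7 and 20.5. The 8 fibroblast markers summed to 77.7, 52.0 and 65.0 and to 67.2, 56.3 and 54.5, and the 4 atrial cardiomyocyte markers to 44.0, 11.7 and 5.69 and to 29.6, 11.1 and 5.36. Of the 4 atrial markers, 1 was at 0 in every library and 3 were at 0 in at least 1. Nppa alone had 20.2, 10.6 and 5.14 FPKM in IgG and 10.8, 10.2 and 5.36 in anti-EZH2, nearly all of the atrial sum after AngII. The endothelial, macrophage, fibroblast and atrial sums were all highest in Sham IgG, as was Klf4. The fibroblast, macrophage and atrial sums were also higher in Sham than at either time in anti-EZH2. The 6 mural markers, 4 of them above the minimum, summed to 20.9, 26.1 and 25.1 in IgG and to 17.3, 19.4 and 13.8 in anti-EZH2. Like the mural sum, the cardiomyocyte, adipocyte, erythroid and neutrophil sums were not highest in Sham IgG. The part of these cell types in the values of Klf4 and of other genes compared with Sham was not tested. Klf6, a widely expressed member, ranged from 1.62 to 2.87 FPKM.

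Klf10, a target of TGF-beta signalling (chr15:38294413-38300707, minus strand), lay below the minimum mean and is named because of its values. It had 0.081, 1.81 and 0.092 FPKM in Sham, 4 h and 24 h IgG and 0.56, 0.57 and 0.44 in anti-EZH2. In fragments these are 1, 27 and 1 with IgG and 9, 13 and 6 with anti-EZH2. AngII 4 h IgG stood alone, with an FPKM interval of 1.12 to 2.44 that overlapped that of no other library. The ratio of AngII 4 h to Sham was 22.2 in IgG (exact counting interval 3.67 to 911) and 1.03 in anti-EZH2 (0.408 to 2.73). A difference of 4 h from Sham was thus present in 1 antibody and not detectable in the other, and the difference between them was not tested. The second table gave Klf10 0.05, 0.84 and 0.04 FPKM in IgG.

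Srf, the factor that binds CArG boxes and whose own promoter held a pair of them, had 2.08, 3.32 and 2.76 FPKM in Sham, 4 h and 24 h IgG and 1.76, 2.48 and 1.18 in anti-EZH2. It was highest at 4 h in both antibodies, by log2 0.65 and 0.47 over Sham, and neither difference passed 2-fold. In the second table Srf was instead highest at 24 h in both, by log2 1.64 in IgG and 0.94 in anti-EZH2 over Sham. At 24 h its anti-EZH2 value was 0.428 of the IgG value (log2 -1.16, and -0.51 in the second table). Myc, a growth-promoting factor, lay between 0 and 0.49 FPKM, with 0 in Sham IgG and in AngII 24 h anti-EZH2.

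The IER proteins are short early gene products. Ier2 had 1.23, 1.73 and 0.20 FPKM in IgG and 1.06, 1.52 and 0.63 in anti-EZH2, with its highest value at 4 h in each antibody. The low value at 24 h in IgG came from 1 fragment, against 7 in Sham, a ratio of 0.162 with an exact counting interval of 0.00360 to 1.26, and the second table gave log2 -0.56. At 24 h in anti-EZH2 Ier2 was at log2 -0.66 from Sham in the separate tables and 1.15 in the second. Ier5 had 1.65, 0.93 and 0.77 FPKM in IgG and 2.00, 1.18 and 0.68 in anti-EZH2, and so was highest in Sham and lowest at 24 h with each antibody. In anti-EZH2 the ratio to Sham was 0.592 (0.349 to 0.996) at 4 h and 0.341 (0.150 to 0.703) at 24 h. In IgG the 24 h difference was log2 -1.02. In the second table the 24 h differences were 0.011 in IgG and -0.21 in anti-EZH2, neither past 2-fold. Ier3, a survival factor, ranged from 2.08 to 4.80 FPKM with no 2-fold difference from Sham. In the second table its 24 h differences from Sham were log2 1.26 in IgG and 2.00 in anti-EZH2, both past 2-fold.

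Zfp36 (tristetraprolin), which binds AU-rich elements and promotes decay of cytokine and early gene mRNAs, had 3.78, 3.35 and 5.44 FPKM in Sham, 4 h and 24 h IgG and 1.32, 4.41 and 2.50 in anti-EZH2. The Sham anti-EZH2 library was the lowest of the 6. AngII 4 h was 3.33-fold higher than Sham in anti-EZH2 (log2 1.66), with FPKM intervals of 3.07 to 5.73 and 0.587 to 2.06, while in IgG the 4 h value lay below that of Sham. Zfp36 was lower with anti-EZH2 than with IgG in Sham (ratio 0.350) and at 24 h (ratio 0.459), both with intervals apart, but not at 4 h. In the second table the 24 h difference between the antibodies was log2 -0.43, no longer past 2-fold. The 24 h differences from Sham there were 1.14 in IgG and 2.23 in anti-EZH2, both past 2-fold. In the separate tables they were 0.51 and 0.87. Zfp36l1, a relative of Zfp36, ranged from 3.00 to 4.24 FPKM. Btg2, an antiproliferative protein that recruits the deadenylase, ranged from 0.97 to 1.86 FPKM.

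Dusp1, the nuclear phosphatase of p38, JNK and ERK, had 2.45, 4.05 and 2.81 FPKM in IgG and 2.98, 3.10 and 1.5 in anti-EZH2. It was highest at 4 h with either antibody, by log2 0.70 in IgG and 0.05 in anti-EZH2, neither past 2-fold. The second table put the 4 h value below Sham in both, by log2 -0.33 and -0.21. Dusp6, a cytoplasmic phosphatase of ERK, lay below the minimum mean and had 1.25, 0.37 and 0.61 FPKM in IgG and 0.95, 0.43 and 0 in anti-EZH2. It was highest in Sham with each antibody, with 14 fragments in either Sham library, and its 4 h to Sham ratio in IgG was 0.294 (0.083 to 0.864), named after its values were seen. Dusp5, a nuclear phosphatase of ERK, had at most 0.41 FPKM.

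GADD45 proteins bind and activate the stress kinase MEKK4. Gadd45g (chr13:51846678-51848468, plus strand) had 0.35, 1.31 and 5.43 FPKM in Sham, 4 h and 24 h IgG and 1.33, 2.31 and 1.93 in anti-EZH2. AngII 24 h IgG was the high library, with about 18 fragments against about 1.31 in Sham IgG. The ratio of these libraries was 15.5, with an approximate counting interval of 3.22 to 851 from fragments rounded to whole numbers, and the FPKM intervals did not overlap. At 4 h in IgG the ratio was 3.76 (0.60 to 227), with overlapping intervals. In anti-EZH2 the differences from Sham did not pass 2-fold in the separate tables, but the 24 h difference was log2 1.78 in the second. The second table also had Gadd45g highest in AngII 24 h IgG, at 3.14 FPKM against 0.12 in Sham IgG.

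Gadd45b (chr10:80930091-80932204, plus strand) had 1.52, 0.54 and 2.71 FPKM in Sham, 4 h and 24 h IgG and 0.16, 1.65 and 0.39 in anti-EZH2. The IgG values were lowest at 4 h, whereas the anti-EZH2 values were highest then. Fragments were about 7.12, 3.05 and 11.2 with IgG and about 1.02, 14.2 and 2.03 with anti-EZH2. AngII 4 h differed from Sham by log2 -1.35 in IgG (approximate counting interval of the ratio 0.0589 to 1.55) and by 2.72 in anti-EZH2 (ratio 10.00, interval 1.52 to 423). Intervals of FPKM were apart in anti-EZH2 and overlapped in IgG. Cyr61, a secreted matricellular protein and target of SRF and YAP, had 2.16, 3.04 and 3.89 FPKM in IgG and 1.25, 2.27 and 2.30 in anti-EZH2, with Sham the lowest of each antibody and no difference past 2-fold. In the second table its 24 h differences from Sham were log2 1.24 in IgG and 1.60 in anti-EZH2, both past 2-fold.

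**Figure D4:**
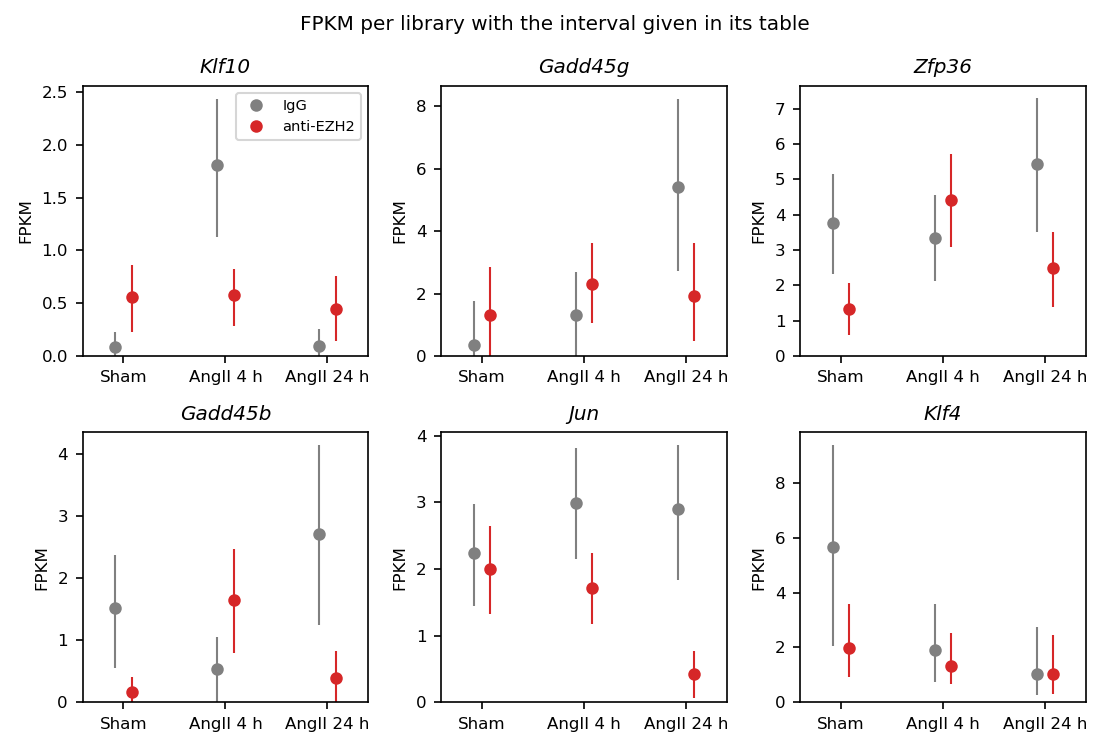
FPKM (y axis) of 6 genes in Sham, AngII 4 h and AngII 24 h (x axis) with IgG (grey) and anti-EZH2 (red); each point is 1 library and each bar is the FPKM interval of the deposited table, which covers counting error. Klf10 stands apart in AngII 4 h IgG (1.81 FPKM), and Gadd45b has its lowest IgG value and its highest anti-EZH2 value at 4 h.

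Across the 17 genes, 2 (Gadd45b and Gadd45g, 11.8%) were past 2-fold with anti-EZH2 over IgG in 1 group and past 2-fold the other way in another group, against 12.8% of all genes.

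Other early genes and the signalling genes upstream were read from lists of 52 and 41 genes. Of the other early genes, 28 passed the minimum. At 4 h in IgG, 5 of them (17.9%) were higher than Sham and 1 (3.57%) lower, against 17.9% and 11.2% of all genes, with a median log2 difference of 0.42 against 0.19. In anti-EZH2, 9 (32.1%) were higher and 0 lower, against 21.1% and 10.1% of all genes, with a median of 0.72 against 0.35. The highest in IgG were Ppp1r15a, a phosphatase subunit of the stress response (0.76 FPKM in Sham, 3.79 at 4 h), and the clock gene Per1 (2.24 and 9.03). In anti-EZH2 Ppp1r15a and Per1 differed by log2 0.47 and 0.46. The lowest in IgG were the feedback inhibitors Errfi1 (log2 -1.47) and Spry2 (-0.94) and the pseudokinase Trib1 (-0.59), and in anti-EZH2 these 3 were above Sham by 0.68, 1.05 and 0.93.

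Of the upstream genes, 33 passed the minimum, and at 4 h in IgG 4 (12.1%) were higher and 5 (15.2%) lower, against 17.9% and 11.2% of all genes, with a median of -0.18 against 0.19. In anti-EZH2 7 (21.2%) were higher and 3 (9.09%) lower, against 21.1% and 10.1%, with a median of 0.56 against 0.35. The extremes in IgG were Nab1, a corepressor of EGR proteins (log2 2.48), and Mapk8, the kinase JNK1 (2.08), and at the other end Egfr, the EGF receptor (-2.98), and Mkl1, the actin-regulated SRF coactivator (-2.69). Nab1 was also above Sham in anti-EZH2 (1.89), while Mapk8 was below it (-1.54) and Mkl1 above it (1.22).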

How the data were processed

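RIP products from each group were sequenced by the authors from a stranded library kit and mapped to mm10 with TopHat2, per the labels. The program, annotation release and strand setting behind the FPKM are not given in the sources used here. The authors deposited FPKM and their interval bounds in a table per library, whose columns are those of a Cufflinks gene table, and FPKM of all 6 libraries in a second table on another scale. The level of the interval is not given in the sources used here.

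Of 46165 rows in each table, 93 repeated a gene identifier and were left out, the first by position being kept, and 787 values below 0.001 FPKM were set to 0. Genes with status OK in every table and a mean of at least 1 FPKM entered the counts, 6877 of them protein-coding. Differences were taken as log2(FPKM + 0.1), which understates those of low genes, and counted past 2-fold, with no test because each group is 1 library per antibody. Fragments were derived from FPKM and the longest transcript in GENCODE M21, with a mean fragment of 200 bases and an SD of 80, from the FPKM steps of 12294 single-transcript genes. Between 64.5% and 66.9% of low values were whole to within 0.1 fragments, as were 49 of the 54 values of the 9 early response genes with 1 transcript. For 10 genes with at least 3 values above 0 all such values were whole, and exact Clopper-Pearson intervals at 95% were computed for ratios. For other genes fragments are approximate. Intervals and floors of 3 fragments cover counting error alone. The steps were tested on simulated data.

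All 33 genes are accounted for by role. Per-library values are given for those with a mean of at least 1 FPKM past 2-fold from Sham, and for others described after their values were seen. Other early and upstream genes are named by the 3 or 2 highest and lowest differences at 4 h in IgG, of which 1 gene is not reported here. The members and lists were chosen with earlier results of these data known. Alternatives were a pseudocount of 1, no filter, the second table, centring on the protein-coding median, a 1.5-fold threshold and non-overlapping FPKM intervals. The tools were matplotlib 3.10.9, scipy 1.17.1, pandas 2.3.3 and numpy 2.4.6, under Python 3.11.15.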

Additional observations from a re-analysis of the deposited data

Results flagged for a closer look

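Gadd45b was picked out because its difference between anti-EZH2 and IgG changed sign between groups, at log2 -2.61 in Sham, 1.46 in AngII 4 h and -2.51 in AngII 24 h. Its difference between AngII 4 h and Sham likewise had opposite signs in the antibodies, at -1.35 in IgG and 2.72 in anti-EZH2. Its fragments numbered about 1.02 in Sham anti-EZH2 and about 3.05 in AngII 4 h IgG, the low values of these comparisons. Gadd45g was picked out in the same way, with anti-EZH2 minus IgG at 1.67 in Sham and -1.45 in AngII 24 h, and about 1.31 fragments in Sham IgG. With 1 library for each combination, these differences between groups were not tested. The share of early response genes with such a pair of opposite differences (11.8%) was close to that of all genes (12.8%).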

How the results depend on the processing

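No paired analysis was possible because each group has 1 library per antibody, and for the same reason no replicate could be left out. Counts are given as higher and lower, in the order 4 h IgG, 24 h IgG, 4 h anti-EZH2 and 24 h anti-EZH2 against Sham and then anti-EZH2 against IgG in Sham, 4 h and 24 h, and only where they moved by more than 1.5 times. With a pseudocount of 1 FPKM there were 0 higher and 1 lower at 4 h IgG, 1 lower at 24 h IgG, 1 lower at 24 h anti-EZH2, 0 higher in Sham, 0 higher at 4 h, and 0 higher and 3 lower at 24 h, where between 5.33% and 13.1% of all genes were higher and between 6.13% and 21.7% lower. With no filter on low values, over all 33 genes, there were 7 and 4, 3 and 5, 6 and 1, 3 and 9, 6 and 7, 5 and 3, and 3 and 12, where of all 45534 genes between 5.86% and 10.0% were higher and between 6.10% and 12.8% lower. Most of all genes were at 0 in each library, with between 15002 and 17682 above 0, whereas between 25 and 31 of the 33 were above 0. These shares are therefore not those of genes at like levels. In the second table, over 10 genes, there were 1 and 0 at 4 h IgG, 6 and 0 at 24 h IgG, 1 higher at 4 h anti-EZH2, 5 and 0 at 24 h anti-EZH2, 1 lower in Sham, 1 higher at 4 h, and 0 and 0 at 24 h. Of all 5036 genes there, 9.09% were higher and 13.9% lower at 4 h IgG, 36.2% and 7.90% at 24 h IgG, 9.77% higher at 4 h anti-EZH2, and 38.6% and 10.7% at 24 h anti-EZH2. For anti-EZH2 against IgG, 10.8% were lower in Sham, 11.9% higher at 4 h, and 15.8% higher and 15.0% lower at 24 h. The medians there were 1.19 at 24 h IgG, 0.99 at 24 h anti-EZH2 and 0.014 for anti-EZH2 against IgG at 24 h, the difference of Ier5 at 24 h IgG turned to 0.011 and that of Junb at 24 h anti-EZH2 to 0.97. The cause was not tested. Centred on the protein-coding median there were 1 and 4 at 4 h IgG, 1 lower at 4 h anti-EZH2 and 3 lower for anti-EZH2 against IgG at 24 h, where 14.8%, 15.9% and 17.3% of all genes were lower. At 4 h IgG 13.8% of all genes were higher. Past 1.5-fold there were 4 and 4 at 4 h IgG, against 30.9% and 18.3% of all genes, and 5 higher at 24 h IgG, against 33.6%. There were 6 and 1 at 4 h anti-EZH2, against 38.4% and 16.3%, and 3 and 8 at 24 h anti-EZH2, against 22.4% and 31.5%. For anti-EZH2 against IgG, 5 were lower in Sham (against 31.8%), 2 lower at 4 h (against 22.4%) and 11 lower at 24 h (against 49.98%). Counting genes with FPKM intervals apart there were 0 and 0 at 4 h IgG, 0 lower at 24 h IgG, 0 higher in Sham, 1 higher at 4 h and 0 higher at 24 h, where between 0.647% and 5.48% of all genes were higher and between 0.717% and 6.77% lower. Differences of single genes, 126 of them over the 17 genes and Klf10, were recomputed with the pseudocount of 1, the second table and the centring. They changed sign in 0, 33 and 19 cases, while of 30 past 2-fold 17, 10 and 4 no longer passed it in the same direction. In the same order, 0, 16 and 3 differences newly passed 2-fold.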
